A study of Mus musculus with 43 samples.

Results

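The genes described here take up, activate, oxidize, make, desaturate, store and release fatty acids, and they were followed through single NAcLat→VTA neurons of mice on regular chow (REG) or high-fat diet (HFD). They are 42 genes listed by their role, of 35825 genes in the tables, and each was looked up by symbol. A filter for expressed genes, counts scaled to a total of 1000000 per cell (CPM) above 15 in at least 5 cells with a mean above 4, kept 10802 genes and 28 of the 42 members. Membership rests on the role of a gene and not on a measured value.

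Fatty acids enter a cell through carriers such as CD36 and the FATP proteins, are carried in the cytosol by fatty acid binding proteins and are activated to acyl-CoA by ligases. Acyl groups cross into mitochondria by the carnitine shuttle and are shortened there by beta-oxidation, whereas synthesis runs in the cytosol from citrate through ATP citrate lyase, acetyl-CoA carboxylase and fatty acid synthase. Neurons are generally thought to burn little fat, and much of the fatty acid oxidation of the brain is ascribed to astrocytes.

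The cells were retrobead-labelled neurons of the lateral nucleus accumbens that project to the ventral tegmental area (VTA), and their cytosol was drawn into a patch pipette after recording in slices. The mice were C57BL/6J animals of both sexes, and the labels name no transgene or deletion in either group. REG cells (23, labelled NORM) came from mice on standard chow, and HFD cells (20) came from mice with free access to both standard and high-fat chow for several weeks. Each cell was 1 library, batch 1 held 13 REG and 5 HFD cells, and batch 2 held 10 REG and 15 HFD cells. The labels do not name the mouse of each cell, so each diet was handled as 1 sample: values are given without a test, and cells are not replicates of a diet. Only beads and a pipette selected the cells, so a cell stands for the aspirated cytosol of a neuron and may carry material from its surroundings.

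Total counts per cell ran from 176961 to 16919555. Markers of GABAergic projection neurons were abundant in every cell, with summed levels between 573 and 10234 CPM, and *Gad1* had counts in all 43 cells. In 2 REG cells and 4 HFD cells 4 or more of the 7 microglial markers were above 15 CPM, and in 1 REG cell and 2 HFD cells the same held for the 7 astrocyte markers. No cell reached that limit for endothelial or oligodendrocyte markers. Of the endothelial markers, *Cldn5* had counts in 1 cell and *Flt1* in 27 cells. Fewer genes were detected in HFD cells of batch 2, with a median of 6492 at 150000 counts per cell, than in REG cells of that batch, with a median of 8211.5, while in batch 1 the order was the other way, at 7902 for HFD and 7395 for REG.

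On the scale of mean CPM, 5 of the 28 members (17.9%) were at least 2-fold lower in HFD cells, namely *Dgat1*, *Acadm*, *Echs1*, *Slc25a20* and *Acadvl*. Among all filtered genes, 14.3% were at least 2-fold lower, so the share of members lay close to that of the other genes. A single member, *Acly*, was at least 2-fold higher (3.57% of members), against 9.04% of all filtered genes. The 5 lower members were also lower within each batch, a pattern that 11.7% of all filtered genes shared, and *Acly* was higher within each batch, a pattern that 6.44% of them shared. The median log2 ratio of HFD over REG was −0.17 over the 28 members and −0.13 over the 10802 genes. The direction of the median depended on how totals were scaled. With TMM-scaled totals the medians were 0.0083 for members and 0.0036 for all genes. By 2-fold, 3 members were then higher and 4 lower, beside 13.1% and 12.3% of all filtered genes. With DESeq2 size factors the medians were 0.23 and 0.14, with 8 members higher and 5 lower, beside 21.6% and 12.7% of all filtered genes. The members nearest the 2-fold limit were *Acadvl* at −1.05 and *Acly* at 1.06 inside it, and *Elovl6* at −0.97, *Lipe* at 0.92 and *Ppargc1a* at 0.91 outside it.

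**Figure D1:**
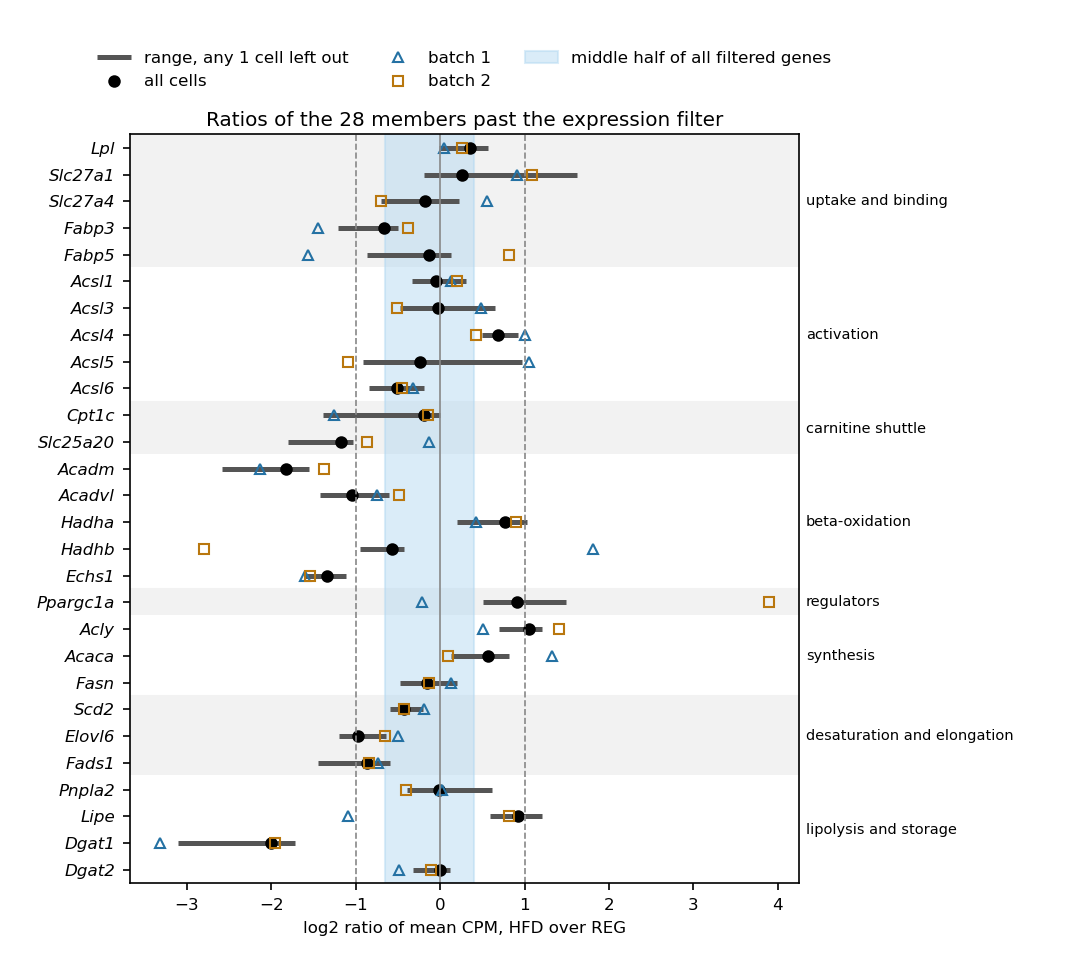
The log2 ratio of mean CPM, HFD over REG, is drawn for the 28 members past the filter, ordered by role. Black points use all cells, bars span the values obtained with any 1 cell left out, open triangles and squares are batch 1 and batch 2 alone, the blue band is the interquartile range of the 10802 filtered genes, and dashed lines mark 2-fold. *Dgat1*, *Acadm* and *Echs1* lie beyond 2-fold on the lower side in both batches, whereas *Hadhb* lies at 1.81 in batch 1 and −2.79 in batch 2.

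By level, the module was led by the binding proteins *Fabp3* and *Fabp5*, by *Lipe*, whose counts are qualified at the end, and by the storage gene *Dgat2*. On the TPM scale, which corrects for transcript length, the mean over all cells was 302 for *Fabp3*, 231 for *Fabp5*, 221 for *Lipe*, 170.1 for *Dgat2*, 91.6 for *Dgat1*, 70.3 for *Lpl*, 63.3 for *Cpt1c* and 55.7 for *Acadvl*. *Fabp3* exceeded 96.4% of all filtered genes by mean TPM. Summed over the 42 genes, the median share of a cell's counts was 0.215% for REG and 0.210% for HFD, and without *Lipe*, described at the end, it was 0.185% and 0.135%. Between 19 and 35 members were detected in a REG cell, with a median of 27, and between 18 and 33 in an HFD cell, with a median of 25. Thinned to 150000 counts per cell the medians were 22 and 20 and both diets spanned 12 to 27, so the diets overlapped at either depth.

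**Figure D2:**
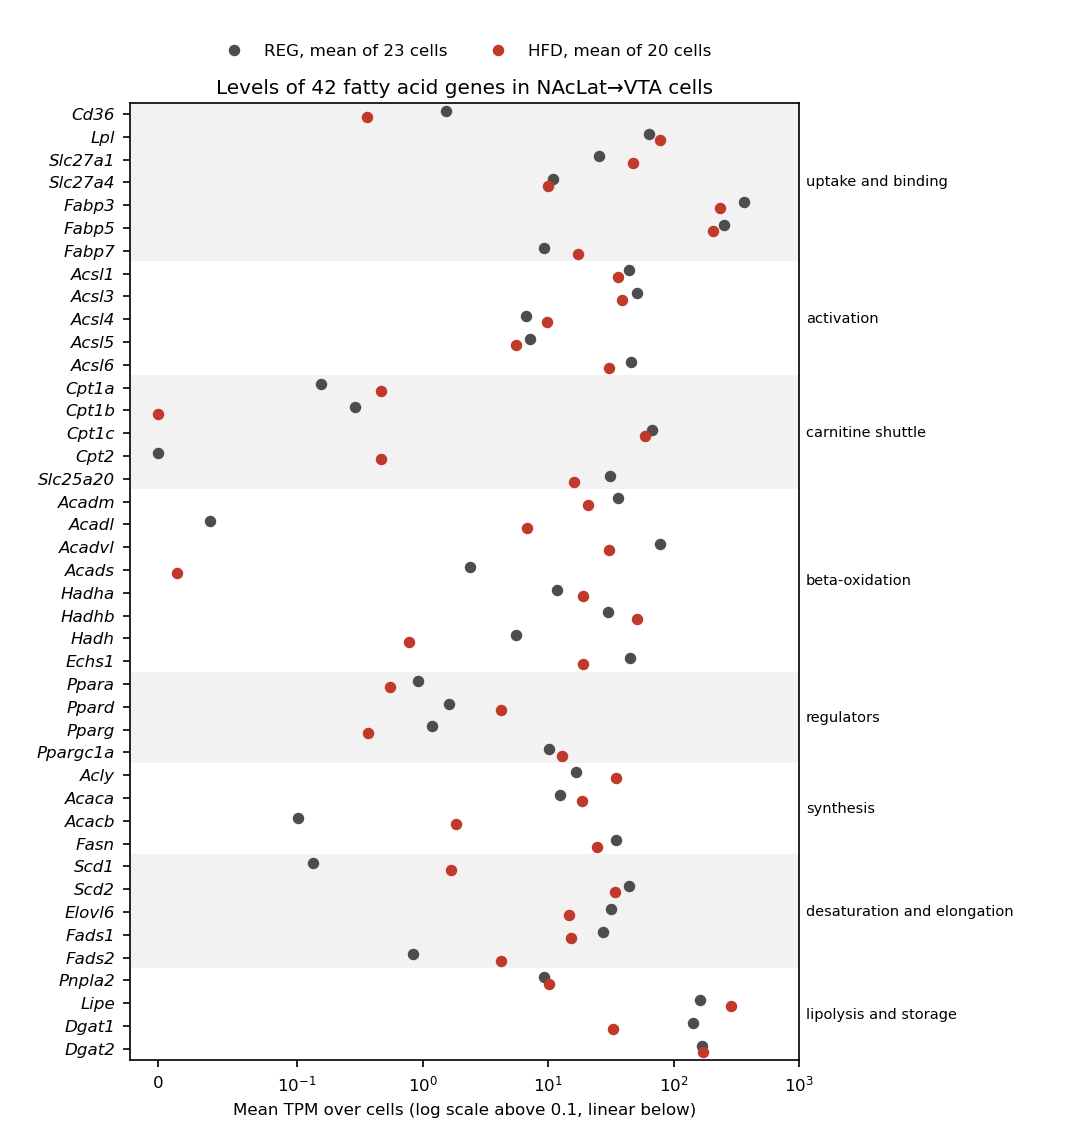
Mean TPM over the 23 REG cells (grey) and the 20 HFD cells (red) is shown for all 42 members on an axis that is logarithmic above 0.1. *Fabp3* leads at 362 TPM in REG cells, and the carnitine palmitoyltransferases *Cpt1a*, *Cpt1b* and *Cpt2* lie below 1 TPM in both diets while *Cpt1c* lies near 60.

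Among the genes of uptake and binding, 5 of 7 passed the filter and none passed 2-fold between the diets by mean CPM. *Fabp3*, the heart-type binding protein that is also found in neurons, ranged in REG cells from 11.3 to 449 CPM with a median of 97.8, and in HFD cells from 0 to 571 CPM with a median of 23.6. The diets overlapped, and counts were present in all 23 REG cells but in 17 of 20 HFD cells. Its mean CPM was 131 ± 117 (SD) over REG cells and 82.7 ± 139 over HFD cells, a log2 ratio of −0.67, with −1.44 in batch 1 and −0.38 in batch 2. By summed counts it was −1.38 and by median CPM −2.05. Of the 31-base words in *Fabp3* transcripts, 50.1% also occur in another gene, chiefly the pseudogene *Fabp3-ps1*, which itself averaged 0.0015 CPM.

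*Fabp5*, the binding protein first described in skin, ranged from 0 to 609 CPM in REG cells with a median of 88.5, and from 1.20 to 1032 CPM in HFD cells with a median of 75.4. The ranges overlapped, and the log2 ratio of −0.13 was −1.56 in batch 1 and 0.81 in batch 2. Without HFD cell 11, which stood at 1032 CPM, it was −0.87. *Fabp7*, the binding protein of astrocytes and radial glia, had counts in only 4 REG cells and 2 HFD cells, and on the TPM scale its mean of 13.1 lay far below those of *Fabp3* and *Fabp5*. Of these 6 cells, 2 were among the 3 cells with astrocyte markers; the part of other cells in *Fabp7* was not tested.

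*Lpl*, the lipase that frees fatty acids from lipoproteins and is expressed by many neurons, ranged from 1.44 to 472 CPM in REG cells with a median of 97.9, and from 0 to 818 CPM in HFD cells with a median of 63.7. The medians and means pointed opposite ways, since the mean CPM was 120.0 in REG and 153 in HFD cells, a log2 ratio of 0.35. This became 1.76 with DESeq2 size factors and 1.25 by summed counts, both past 2-fold. The transporters *Slc27a1* (FATP1) and *Slc27a4* (FATP4) had log2 ratios of 0.25 and −0.18. Leaving out REG cell 6, in which *Slc27a1* stood at 638 CPM, moved its log2 ratio to 1.63. *Cd36*, the scavenger receptor that imports fatty acids in muscle, fat and microglia, was found in 1 REG cell (4.35%, exact 95% interval 0.110 to 21.9%) and in 6 HFD cells (30%, 11.9 to 54.3%). Thinned to equal depth *Cd36* remained in 4.35% of REG and 10% of HFD cells, and 2 of its 7 cells were among those with microglial markers. All 7 cells were of batch 2, which held most HFD cells. The REG cell held 224 counts and the HFD cells 9 in sum. Mean CPM was 2.85 for REG and 0.82 for HFD.

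All 5 acyl-CoA ligases passed the filter and none passed 2-fold by mean CPM. On the TPM scale the mean over cells was 45.1 for *Acsl3*, 40.5 for *Acsl1*, 38.5 for *Acsl6*, 8.15 for *Acsl4* and 6.44 for *Acsl5*. *Acsl6*, the ligase that favours docosahexaenoic acid in neurons, had counts in every REG cell but in 16 of 20 HFD cells, with a log2 ratio of −0.51. *Acsl4*, which favours arachidonic acid, stood at 0.68, with 1.0 in batch 1 and 0.42 in batch 2. The ratios of *Acsl3* and *Acsl5* had opposite signs in the batches. Leaving out REG cell 14 moved *Acsl3* from −0.02 to 0.65, and leaving out REG cell 19 moved *Acsl5* from −0.24 to 0.97.

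The carnitine shuttle was represented unevenly. *Cpt1c*, the neuronal form of carnitine palmitoyltransferase that sits in the endoplasmic reticulum and has little catalytic activity, had counts in 41 of 43 cells and a mean of 63.3 TPM. *Cpt1a*, the form of liver and astrocytes, had counts in 3 cells, *Cpt1b*, the muscle form, in 4 cells, and *Cpt2*, the enzyme of the inner mitochondrial membrane, in 2 cells. Their mean levels were 0.301, 0.154 and 0.219 TPM, and 81.4% of the exonic bases of *Cpt1b* are shared with *Gm44502* on the same strand, so its counts are uncertain. *Cpt2* was listed at 0 in all 23 REG cells, where the exact interval allows up to 14.8% of cells. *Cpt1c* ranged from 0 to 388 CPM in REG cells with a median of 85.5, and from 0 to 1071 CPM in HFD cells with a median of 25.6. Its log2 ratio of −0.19 depended on HFD cell 19, without which it was −1.39, and on scaling, since it was 1.96 with DESeq2 size factors.

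*Slc25a20*, the carnitine-acylcarnitine translocase of the inner membrane (chr9:108662088-108684641, plus strand, GRCm38), ranged from 0 to 154 CPM in REG cells with a median of 52.2, and from 0 to 168 CPM in HFD cells with a median of 7.33. Its summed counts, with exact 95% Poisson intervals, were 1850 (1767 to 1936) for REG and 641 (592 to 693) for HFD, and such intervals cover counting error only because amplified reads are not independent molecules. These sums, here and below, are not scaled for depth, so the deepest cells weigh most. The largest totals were 16919555 among REG cells, in REG cell 14, and 8242048 among HFD cells. The mean was 49.3 ± 44.7 (SD) CPM over REG cells and 21.8 ± 39.7 over HFD cells, a log2 ratio of −1.17 that moved to −1.80 without HFD cell 1. The batches stood further apart than the diets: the mean CPM was 80.7 in REG and 73.5 in HFD cells of batch 1, and 8.41 and 4.61 in batch 2. Within the batches the log2 ratio was −0.13 and −0.87, neither of which passed 2-fold, and the diets were unequally divided between them.

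Beta-oxidation held the most members past 2-fold, with 3 of 5 filtered genes lower in HFD cells and a median log2 ratio of −1.05, beside 14.3% lower and a median of −0.13 over all filtered genes. The group is small and no test was made. The 11 filtered helpers of mitochondrial oxidation in the second list had none lower, 2 higher and a median of 0.43. *Acadm*, the medium-chain acyl-CoA dehydrogenase (chr3:153922357-153944632, minus strand), ranged from 0 to 181 CPM in REG cells with a median of 11.1, and from 0 to 94.5 CPM in HFD cells with a median of 0.68. The diets overlapped, and 16 REG cells but 13 HFD cells held any count. Summed counts were 2821 (2718 to 2927) in REG and 378 (341 to 418) in HFD cells.

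Mean CPM of *Acadm* was 37.8 ± 51.5 (SD) and 10.7 ± 22.4, a log2 ratio of −1.82, with −2.13 in batch 1 and −1.37 in batch 2. It stayed past 2-fold with any 1 of the 43 cells left out, the lowest value being −2.59 without HFD cell 15. On the TPM scale, however, the log2 ratio was −0.81.

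*Echs1*, the short-chain enoyl-CoA hydratase (chr7:140105710-140116476, minus strand), ranged from 0 to 228 CPM in REG cells with a median of 27.4, and from 0 to 84.5 CPM in HFD cells with a median of 10.2. The highest REG cells lay above every HFD cell, but the ranges overlapped below. Summed counts were 5517 (5372 to 5665) and 1073 (1010 to 1139), and mean CPM was 53.0 ± 64.6 and 20.9 ± 25.8. The log2 ratio was −1.34, with −1.60 in batch 1 and −1.54 in batch 2, and it stayed past 2-fold with any 1 cell left out.

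*Acadvl*, the very-long-chain acyl-CoA dehydrogenase (chr11:70010183-70015411, minus strand), ranged from 0 to 245 CPM in REG cells with a median of 7.96, and from 0 to 94.9 CPM in HFD cells with a median of 3.21. Summed counts were 1539 (1463 to 1618) and 679 (629 to 732), and mean CPM was 36.4 ± 60.6 and 17.6 ± 26.1. Its log2 ratio of −1.05 was −0.75 in batch 1 and −0.48 in batch 2, and it passed 2-fold in 29 of the 43 sets with 1 cell left out. With TMM-scaled totals it was −0.92 and with DESeq2 size factors −0.97. Of its exonic bases, 42.9% are shared with *Dvl2* on the opposite strand, and without strand in the library reads from the shared part cannot be assigned to either gene.

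The windows of 250 bases before to 50 after the RefSeq start site (GRCm38.p6) are shown for the 4 lower members of oxidation and shuttle, since these are the genes of that path past 2-fold. Capitals mark AGGTCA, the hexamer recognised by many nuclear receptors, and GGGCGG, the GC box bound by Sp1, on either strand.
Acadm, chr3:153944594-153944893, minus strand: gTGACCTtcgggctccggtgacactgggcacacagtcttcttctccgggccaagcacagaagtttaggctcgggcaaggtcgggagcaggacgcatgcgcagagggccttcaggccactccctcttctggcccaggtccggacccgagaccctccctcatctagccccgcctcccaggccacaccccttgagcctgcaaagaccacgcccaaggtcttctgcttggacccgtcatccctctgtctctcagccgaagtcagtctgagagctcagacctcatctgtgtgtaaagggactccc
Echs1, chr7:140116372-140116671, minus strand: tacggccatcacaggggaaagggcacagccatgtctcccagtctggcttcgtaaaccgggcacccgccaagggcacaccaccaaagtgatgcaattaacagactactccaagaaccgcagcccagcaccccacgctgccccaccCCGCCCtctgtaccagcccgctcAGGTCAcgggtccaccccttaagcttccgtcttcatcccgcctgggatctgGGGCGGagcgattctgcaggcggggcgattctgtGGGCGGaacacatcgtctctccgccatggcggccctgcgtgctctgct
Slc25a20, chr9:108661886-108662185, plus strand: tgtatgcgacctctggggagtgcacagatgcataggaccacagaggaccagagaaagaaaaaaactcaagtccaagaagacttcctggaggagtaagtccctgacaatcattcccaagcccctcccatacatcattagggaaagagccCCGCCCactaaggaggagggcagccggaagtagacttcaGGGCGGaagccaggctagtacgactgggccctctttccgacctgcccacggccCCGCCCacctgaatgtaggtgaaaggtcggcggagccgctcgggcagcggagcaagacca
Acadvl, chr11:70015379-70015678, minus strand: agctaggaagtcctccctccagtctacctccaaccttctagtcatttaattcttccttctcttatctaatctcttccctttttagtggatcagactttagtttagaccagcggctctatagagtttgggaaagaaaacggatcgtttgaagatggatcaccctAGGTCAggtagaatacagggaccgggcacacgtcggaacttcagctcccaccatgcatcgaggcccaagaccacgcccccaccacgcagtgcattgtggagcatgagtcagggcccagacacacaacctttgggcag
AGGTCA begins 83 bases before the start of *Echs1* and 87 bases before that of *Acadvl*, its reverse complement lies 249 bases before that of *Acadm*, and the window of *Slc25a20* holds neither. Over all 32851 windows of this length 16.3% hold AGGTCA and 35.7% hold GGGCGG, and of the 42 windows found for 34 of the members 13 hold the former and 28 (66.7%) the latter. Member windows were richer in G and C, with a median of 60.8% against 52.7%, and a match is a description of letters and not a bound site.

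**Figure D3:**
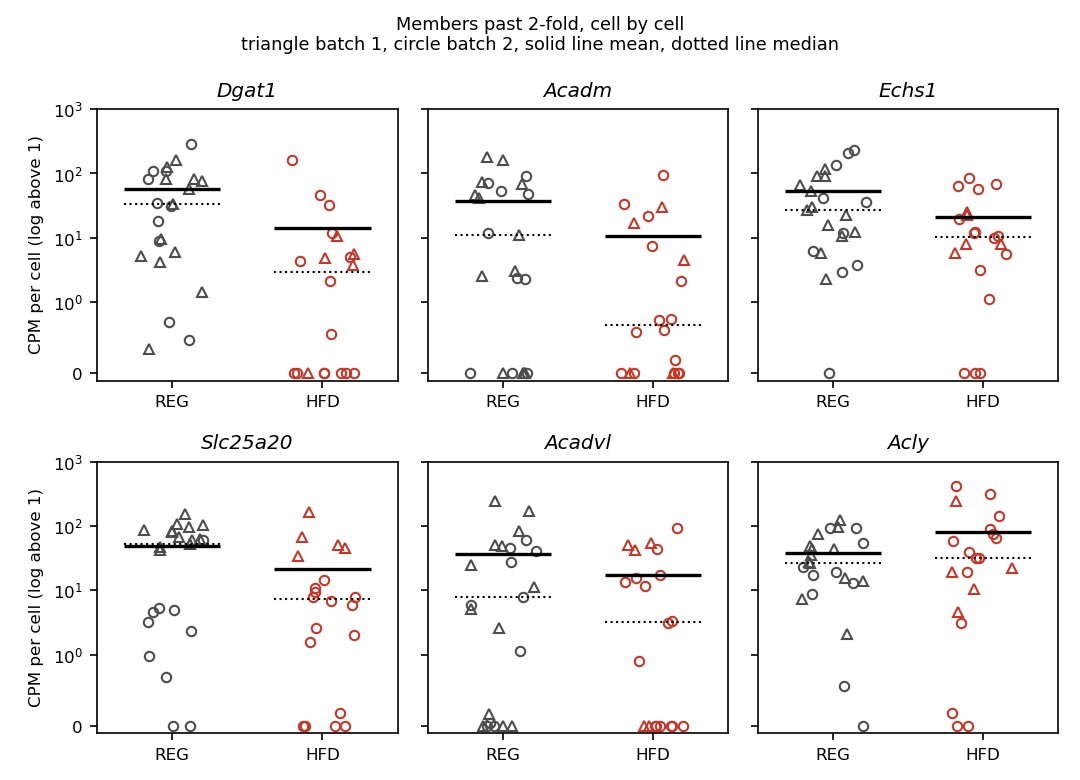
Each symbol is the CPM of a member past 2-fold in 1 cell, on an axis that is logarithmic above 1, for REG (grey) and HFD (red) cells of batch 1 (triangles) and batch 2 (circles), with the mean as a solid and the median as a dotted line. In every panel the diets overlap, and for *Slc25a20* the batch 1 cells lie above most batch 2 cells of either diet.

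The mitochondrial trifunctional protein is built from the subunits *Hadha* and *Hadhb*, whose genes as annotated by GENCODE start head to head 86 bases apart on chromosome 5. Their 300-base windows, placed by RefSeq start sites, share 228 bases. These are printed on the plus strand because the genes lie on opposite strands, with GGGCGG in capitals. The 2 annotations place the start of *Hadha* differently, so the shared stretch reaches into *Hadha* as GENCODE gives it, up to base 30155162.
Hadha and Hadhb, chr5:30155003-30155230, plus strand: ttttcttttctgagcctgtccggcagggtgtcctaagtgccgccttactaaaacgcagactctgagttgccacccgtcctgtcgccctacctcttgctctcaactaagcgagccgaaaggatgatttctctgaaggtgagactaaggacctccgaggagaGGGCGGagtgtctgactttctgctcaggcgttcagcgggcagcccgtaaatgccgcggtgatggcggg
Over the 43 cells their CPM values had Spearman's rho of 0.093. *Hadha* ranged from 0 to 60.5 CPM in REG cells with a median of 10.6, and from 0 to 159 CPM in HFD cells with a median of 5.94, a log2 ratio of 0.76. *Hadhb* ranged from 0 to 138 CPM in REG cells with a median of 22.4, and from 0 to 156 CPM in HFD cells with a median of 10.8, a log2 ratio of −0.57. In batch 1 the mean CPM of *Hadhb* was 24.9 in REG and 87.4 in HFD cells, and in batch 2 it was 67.3 and 9.70. Of the 31-base words of *Hadhb*, 23.7% occur in other genes, mostly in the processed pseudogene *Gm13910*.

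The other dehydrogenases were rare. *Acadl*, the long-chain acyl-CoA dehydrogenase, had counts in 2 REG and 5 HFD cells, *Acads*, the short-chain enzyme, in 1 and 1, and *Hadh*, the hydroxyacyl-CoA dehydrogenase, in 9 and 6. Summed counts of *Acadl* were 2 in REG and 357 in HFD cells, and its mean CPM was 0.044 and 4.47. All 7 of its cells were of batch 2, and 3 of them were among those with microglial markers. Summed counts went the other way for *Acads*, at 207 and 1, and for *Hadh*, at 132 and 19.

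Among the regulators only *Ppargc1a*, the coactivator of mitochondrial biogenesis, passed the filter. It ranged from 0 to 155 CPM in REG cells with a median of 2.06, and from 0 to 196 CPM in HFD cells with a median of 5.85. The log2 ratio of 0.91 came from batch 2 at 3.89, whereas batch 1 gave −0.22. Without REG cell 4, at 155 CPM, it was 1.49, and with DESeq2 size factors 1.65. The nuclear receptors that drive fatty acid genes were scarce: *Ppara* had counts in 7 REG and 3 HFD cells, *Ppard* in 17 and 9, and *Pparg* in 3 and 1. On the TPM scale their means were 0.752, 2.85 and 0.807, against 11.5 for *Ppargc1a*.

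Of the genes of synthesis, *Acly*, which makes cytosolic acetyl-CoA from citrate (chr11:100476353-100528000, minus strand), ranged from 0 to 124 CPM in REG cells with a median of 26.7, and from 0 to 416 CPM in HFD cells with a median of 31.9. The medians lay close together, and the highest HFD cells stood above all REG cells. Summed counts were 1891 (1807 to 1978) and 5762 (5614 to 5913), and mean CPM was 38.5 ± 35.6 and 80.1 ± 116. The log2 ratio was 1.06, with 0.51 in batch 1 and 1.41 in batch 2, and it passed 2-fold in 36 of the 43 sets with 1 cell left out.

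The ratio of *Acly* did not stay past 2-fold in every setting. Thinned to 150000 counts per cell it was 0.54, without the 6 cells with microglial markers it was 0.92, and as a difference of mean log2(CPM + 1) it was 0.18. All 6 of those cells had *Acly* counts, and over the 43 cells its rho with the summed microglial markers was 0.34; the part of these cells in the ratio was not tested. Its window is shown because it was the member that stood higher, and it holds AGGTCA 40 bases before the start.
Acly, chr11:100527951-100528250, minus strand: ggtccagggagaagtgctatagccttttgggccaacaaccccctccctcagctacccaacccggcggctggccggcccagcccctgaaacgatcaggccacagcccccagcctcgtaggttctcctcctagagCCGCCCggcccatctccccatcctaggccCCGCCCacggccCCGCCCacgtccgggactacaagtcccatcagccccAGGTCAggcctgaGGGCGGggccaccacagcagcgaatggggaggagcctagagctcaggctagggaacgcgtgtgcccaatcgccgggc

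*Fasn*, fatty acid synthase, had counts in 20 of 23 REG and 20 of 20 HFD cells, with medians of 48.9 and 55.8 CPM and a log2 ratio of −0.16. *Acaca*, the cytosolic acetyl-CoA carboxylase that makes malonyl-CoA, stood at 0.57, with 1.33 in batch 1 and 0.09 in batch 2. Of its 31-base words 33.5% occur in other genes, above all the processed pseudogene *Gm5182*, so its counts are uncertain. *Acacb*, the mitochondrial carboxylase, had counts in 2 REG cells and 1 HFD cell.

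All 3 filtered genes of desaturation and elongation had lower mean CPM in HFD cells, none past 2-fold, and the direction of *Scd2* and *Fads1* turned under another setting. *Fads1*, the delta-5 desaturase of polyunsaturated fatty acids, ranged from 0 to 285 CPM in REG cells with a median of 27.7, and from 0 to 241 CPM in HFD cells with a median of 1.36, a log2 ratio of −0.86 with −0.73 and −0.84 in the batches. As summed counts over summed totals it was 0.27. *Elovl6*, which elongates palmitate, had medians of 26.1 and 7.23 CPM and stood at −0.97 with −0.50 and −0.65. With DESeq2 size factors the ratio of *Scd2*, −0.43 by totals, turned to 0.42. *Scd2*, the stearoyl-CoA desaturase of brain, had counts in 41 cells and a mean of 39.5 TPM, whereas its paralogue *Scd1*, of liver and fat, had counts in 11 cells and a mean of 0.857 TPM. Unlike the filtered genes, *Scd1* had the higher mean CPM in HFD cells, at 5.47 against 0.41. It had 17 counts in 5 REG cells and 207 in 6 HFD cells. *Fads2* had counts in 5 REG and 3 HFD cells.

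Among the 28 filtered members the largest fold of mean CPM was that of *Dgat1*, the enzyme that adds the last acyl group to triacylglycerol (chr15:76502015-76511953, minus strand). It ranged from 0.341 to 286 CPM in REG cells with a median of 33.9, and from 0 to 159 CPM in HFD cells with a median of 2.95. Every REG cell had counts, 8 of 20 HFD cells had none, and the ranges overlapped. Summed counts were 6538 (6380 to 6698) and 806 (751 to 864), and mean CPM was 57.5 ± 68.7 and 14.3 ± 36.1. REG cell 14, the deepest cell, stood highest at 286 CPM and so weighs heavily in the REG sum.

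The log2 ratio of *Dgat1* was −2.01, with −3.32 in batch 1 and −1.96 in batch 2, and leaving out any 1 cell gave −3.10 to −1.72. HFD cell 14 held 55.6% of the summed HFD CPM, and the value without it was −3.10. *Dgat1* shares no 31-base word and no exonic base with another gene. *Dgat2*, a sequence-unrelated enzyme of the same reaction, was found in all 43 cells. It ranged from 21.5 to 609.5 CPM with a median of 155 for REG, and from 6.75 to 1023 CPM with a median of 169.8 for HFD, and its log2 ratio was −0.0066. *Pnpla2*, the lipase that starts triacylglycerol breakdown, had counts in 10 REG and 9 HFD cells and a log2 ratio of −0.02, which was 0.62 without REG cell 14 and had the other sign in 7 of 14 settings.

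At equal depth the share of cells with a count was at least 20 percentage points lower in HFD cells for 4 of the 28 members (14.3%), against 11% of all filtered genes. For *Fads1* the count was 18 REG cells and 8 HFD cells, which is 78.3% (exact 95% interval 56.3 to 92.5%) and 40% (19.1 to 63.9%). *Dgat1* was detected in 78.3% (56.3 to 92.5%) and 45% (23.1 to 68.5%), *Acadm* in 60.9% (38.5 to 80.3%) and 30% (11.9 to 54.3%), and *Fabp3* in 100% (85.2 to 100%) and 75% (50.9 to 91.3%). These intervals cover the counting of cells only and take no account of cells that share a mouse. None of the members was 20 points higher in HFD cells, against 3.57% of all genes. The median difference over all genes was −3.48 points, so detection was lower in HFD cells over all genes as well.

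**Figure D4:**
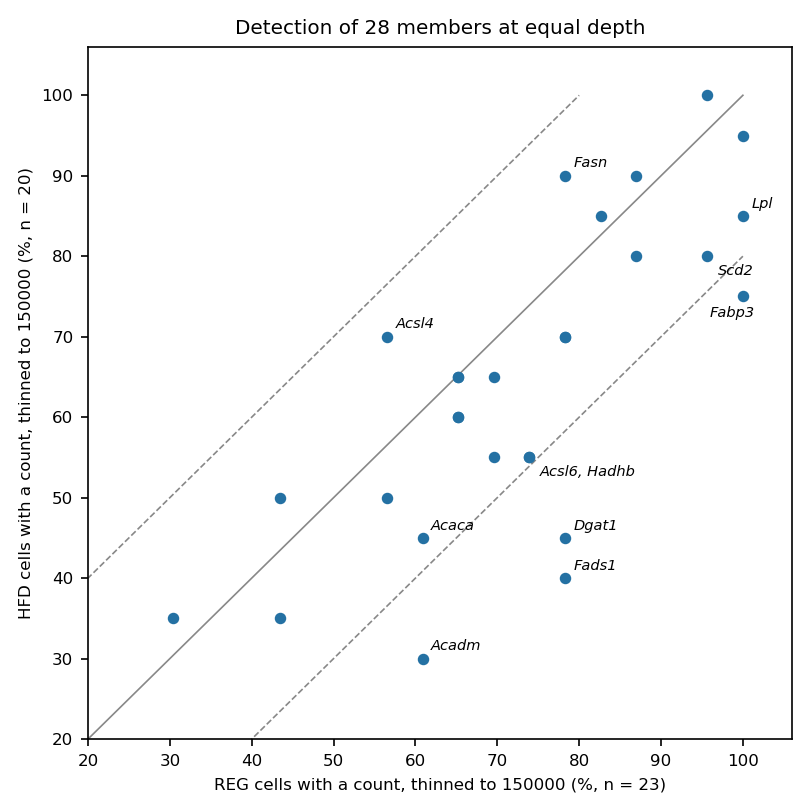
Each point is 1 of the 28 members, with the percent of 23 REG cells with a count on the horizontal axis and the percent of 20 HFD cells on the vertical axis, each cell thinned to 150000 counts. Dashed lines lie 20 points from equality, and *Fads1*, *Dgat1*, *Acadm* and *Fabp3* lie below the lower one.

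*Lipe*, hormone-sensitive lipase, stood apart from the other members in which genes its level followed. It ranged from 4.76 to 2040.0 CPM in REG cells with a median of 236, and from 50.7 to 3845 CPM in HFD cells with a median of 340.2. Every cell had counts, and the log2 ratio of 0.92 was −1.09 in batch 1 and 0.82 in batch 2. Over the 43 cells its level followed that of *Pecam1*, an endothelial marker, with rho of 0.956. Of the other endothelial markers, *Flt1* had counts in 27 cells, *Kdr* in 13, *Slco1a4* in 4, *Cdh5* and *Cldn5* in 1 each and *Ly6c1* in none. The highest mean among these was 2.61 CPM, for *Kdr*.

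The 5 genes closest to *Lipe* over the 43 cells, chosen after the values were seen, were *Gm47669* at rho 0.974, *Tcf7l2* at 0.967, *Eif2a* at 0.963, *Frmpd3* at 0.959 and *Rps2-ps10* at 0.956. In each of these 5 genes a transcript holds a run of at least 25 A or T. *Pecam1*, next in order at 0.956, has a longest run of 43. The longest run of *Lipe* is 28 A in the 5′ untranslated part of transcript Lipe-201, at chr7:25396153-25396180 on the minus strand, shown with 1 flanking base on each side and the run in capitals.
Lipe: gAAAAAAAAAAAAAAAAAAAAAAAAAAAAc
Of the 20 filtered genes closest to *Lipe*, 19 had a run of at least 25 A or T, against 463 of all 10779 filtered genes with a transcript (4.30%). Genes with such a run had a median rho with *Lipe* of 0.32, and genes with shorter runs had a median of −0.17. No other member had a run of 25, the next being *Fabp5* at 22 and *Lpl* at 21, and the rho of *Lpl* with the summed run-bearing genes was −0.28 against 0.76 for *Lipe*.

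The summed level of the run-bearing genes had diet ratios of the same signs as *Lipe*. Their summed mean was 52986 CPM for REG and 65408 CPM for HFD, which is 0.30 as a log2 ratio, with −0.38 in batch 1 and 0.40 in batch 2. *Lipe* gave 0.92, −1.09 and 0.82 over the same cells, and *Pecam1*, itself one of the run-bearing genes, gave 0.89, −1.39 and 0.76. The part of these runs in the counts of *Lipe* was not tested, and its level is given here as listed.

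**Figure D5:**
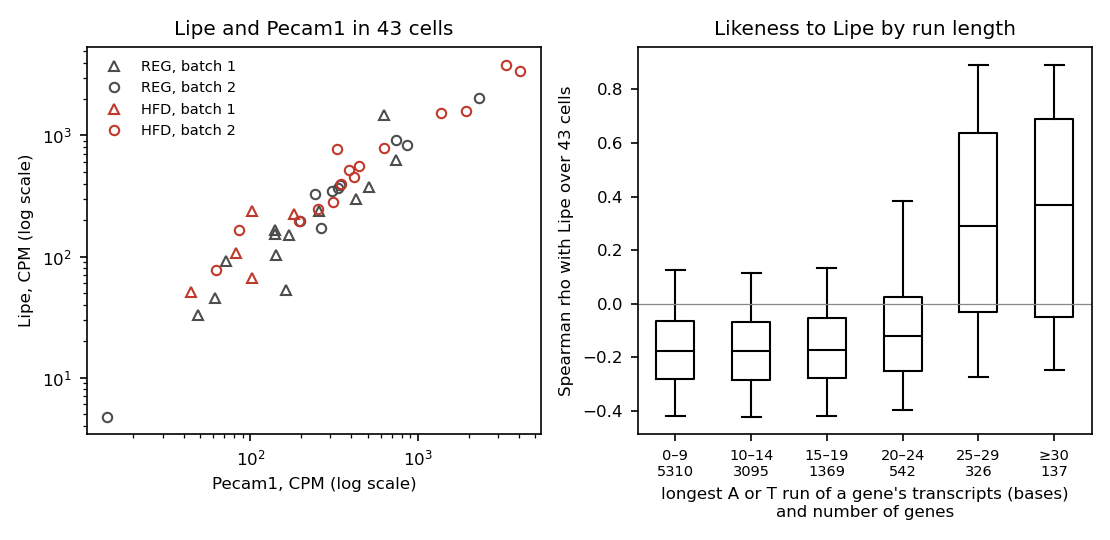
The left panel plots *Lipe* against *Pecam1* in CPM on log axes for 43 cells, with REG in grey, HFD in red, triangles for batch 1 and circles for batch 2. The right panel gives Spearman's rho with *Lipe* over the 43 cells for filtered genes binned by the longest A or T run in their transcripts, with the number of genes under each bin, boxes for the middle 50% and whiskers from the 5th to the 95th percentile; the median is −0.17 up to 19 bases and 0.29 from 25 to 29 bases.

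Rank correlations between members over the cells were mostly low, and pairs of other genes were not examined for comparison. Over the 378 pairs of filtered members the median rho was 0.09 and the highest was 0.49, for *Acsl3* with *Dgat1*. *Acsl3* was part of 4 of the 10 closest pairs, with *Hadha* at 0.47, *Acsl6* at 0.47 and *Acaca* at 0.42. The others were *Cpt1c* with *Dgat2* at 0.46, *Hadhb* with *Elovl6* at 0.45, *Echs1* with *Fads1* at 0.44, *Lpl* with *Acsl4* at 0.41, and *Acsl6* with *Acadm* and *Lpl* with *Dgat2* at 0.40. The points share libraries and depth, and these values describe the cells without a test.

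A second list of 60 further genes of peroxisomal oxidation, mitochondrial helpers, other transporters and ligases, elongases, lipogenic regulators and lipid droplets was described in the same way. Of its 44 filtered genes, 7 (15.9%) were at least 2-fold higher and 3 (6.82%) lower in HFD cells, beside 9.04% and 14.3% of all filtered genes, and the median log2 ratio was 0.27, beside −0.13. Those 2-fold higher with the same sign in both batches included *Acsbg1*, a very-long-chain ligase, at 2.58, *Insig1*, the sterol-regulated anchor of SCAP, at 1.38, *Hsd17b10*, a mitochondrial hydroxyacyl-CoA dehydrogenase, at 1.23, *Crat*, carnitine acetyltransferase, at 1.23, and *Acss2*, acetyl-CoA synthetase, at 1.20. The lower ones were *Scap*, the SREBP escort protein, at −1.97, and *Slc27a2*, a FATP transporter found in 10 REG and 4 HFD cells, at −1.64. Leaving out each cell in turn, a step added after the values were seen, moved several of them. *Acsbg1* was 1.75 without HFD cell 16 and 6.02 without REG cell 19. *Crat* fell under 2-fold without HFD cell 13 (0.44), *Acss2* without HFD cell 5 (0.55), *Hsd17b10* without HFD cell 11 (0.74) and *Insig1* without HFD cell 16 (0.90). Without REG cell 17 *Insig1* was 2.33, without REG cell 5 *Hsd17b10* was 1.85, and without HFD cell 14 *Slc27a2* was −2.70.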

How the data were processed

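The members, the second list and the marker lists were chosen with earlier results of these data known. By the study's methods and the labels, kallisto assigned reads to GRCm38 transcripts, values were added up per gene, and outlying cells were dropped by the authors. One deposited table holds estimated counts and the other deposited table holds TPM as computed by the authors. CPM scaled each cell's estimated counts to 1000000, and log2 ratios compared mean CPM, HFD over REG, with no pseudocount. Each cell's diet and batch came from its label. Thinning drew 150000 counts per cell without replacement. Members past 2-fold, the 8 highest by TPM, paralogues and the 10 closest pairs were named by rule; *Lipe* and its companions were chosen after the values were seen. Positions, exon overlaps, 31-base words and A or T runs came from GENCODE M21 (GRCm38), and start windows from RefSeq. The ratio was run on simulated counts with known changes, drawn independently per gene and cell and without batches. Only medians over sets of genes were checked there, so it does not bear on single genes. Tools were Python 3.11.15, pandas 2.3.3, scipy 1.17.1, R 4.3.3, edgeR 4.0.16 (TMM factors only) and DESeq2 1.42.0 (size factors only). The values of 1 gene of the second list are not reported here.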

Additional observations from a re-analysis of the deposited data

How the results depend on the processing

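The values above are ratios of mean CPM, and other settings moved them; the causes were not tested. The median log2 ratio of the 28 members, −0.17, reversed to 0.0083 with TMM-scaled totals (3 members 2-fold higher) and to 0.23 with DESeq2 size factors (8 higher). It was −0.29 by TPM, −0.080 without *Lars2* and *Gm19220* in the totals (2 higher), −0.40 as a difference of mean log2(CPM + 1) (0 higher, 9 lower), −0.88 by median CPM (3 higher, 12 lower), −0.39 in batch 2 (3 higher), −0.25 as the mean of the batches (2 higher, 3 lower), −0.26 thinned (0 higher) and −0.082 without cells with astrocyte markers (2 higher). Batch 1 alone gave 4 higher, summed counts gave 5 higher and 8 lower, no filter gave 5 higher and 10 lower among 41 members, and removing cells with microglial markers gave 0 higher. Among all filtered genes the 2-fold higher and lower shares were 13.3% and 29.8% by median CPM and 14.1% and 21.8% by summed counts. They were 18.3% and 23.9% in batch 1 and 13.5% and 21.1% in batch 2. Thinned they were 9.54% and 15.3%, and without cells with microglial markers 9.60% and 18.4%. With no filter 16.7% of genes were higher and 23.5% lower. The median over all filtered genes was −0.38 by median CPM, −0.16 in batch 2 and −0.25 as a difference of mean log2(CPM + 1). For that difference 3.31% of all filtered genes were higher and 14.1% lower. Leaving out any 1 cell gave between 0 and 3 members higher, between 4 and 7 lower and a member median between −0.22 and −0.10. Members detected per cell were 22 in REG and 20 in HFD cells when thinned, and 18 and 14 above 15 CPM. Over these settings, 10 of the 28 members kept their sign and 18 did not. Among the 10 were the 6 past 2-fold, which had the largest ratios to begin with. How many of all filtered genes kept their sign was not counted, so the 10 stand without a comparison. *Dgat1*, *Acadm* and *Echs1* stayed past 2-fold in each batch. No paired analysis was possible because the cells' numbers follow accession order and name no pairs. Depth limits the rare members, and the labels do not tie cells to mice.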
